A study of Saccharomyces cerevisiae with 4 samples.

Results

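RNA polymerase I is the enzyme that transcribes the ribosomal DNA. Of the 7445 features counted in 4 RNA sequencing libraries of budding yeast (Saccharomyces cerevisiae), 10 genes were taken by their systematic names: the 9 genes for subunits found in this enzyme but not in RNA polymerase II (RPA190, RPA135, RPA49, RPA43, RPA34, RPA14, RPA12, RPC40 and RPC19) and RRN3, which encodes its initiation factor. All 10 had enough counts to be tested. There were 2 libraries labelled trf4::HphMX4 (trf4Δ), in which TRF4 is replaced by a hygromycin resistance cassette, and 2 labelled wild type. Both strains are of the W303 background, and growth was in YPDA, a rich medium, at 25 °C, with cells collected in exponential growth at an optical density of 0.8. Ribosomal RNA was removed before the libraries were made, so the product of RNA polymerase I was not measured, and 13 of the 14 nuclear ribosomal RNA features were listed at 0. Trf4 is a poly(A) polymerase that marks nuclear RNA for the exosome. The labels do not say whether the libraries of a strain came from separate cultures or clones, so p-values measure only the spread between these libraries, which may be technical. In bulk RNA of this kind, less RNA per cell and fewer cells with the RNA cannot be told apart.

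RNA polymerase I synthesises the large precursor of the ribosomal RNAs in the nucleolus, and its output sets much of the rate at which ribosomes are made. Rpa190 and Rpa135 form the catalytic core. Rpc40 and Rpc19 are the assembly platform of the enzyme and are shared with RNA polymerase III. Rpa43 and Rpa14 form a stalk, Rpa49 and Rpa34 form a dimer related to general factors of RNA polymerase II, and Rpa12 acts in cleavage of the nascent RNA. Only enzyme bound to Rrn3, which docks on Rpa43, starts at the ribosomal DNA promoter. Genes for ribosome synthesis in yeast often carry a pair of promoter elements, PAC (named after polymerases A and C, the older names of I and III) and RRPE (ribosomal RNA processing element).

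Most of the subunit genes and RRN3 changed in opposite directions, though the call for RRN3 depended on the fit. In trf4Δ the mRNA of 8 of the 9 subunits fell, to between 56.0% and 68.2% of the wild-type level, whereas RRN3 rose to 123%. RPA12 had the lowest share and RPA190 the highest among the subunits that fell. RPA14, the remaining subunit, was at 92.8% and did not pass the test. Thus 9 of the 10 genes were called, beside 60.1% of all 6372 features tested. Of all features 28.9% were called lower and 31.3% were called higher, and the median log2 fold change was 0.01. For the 10 genes the median was -0.59. Summed over the 10 genes, the normalised level was 3087 and 2993 CPM (counts per 1000000, with library sizes scaled by TMM) in trf4Δ and 4570 and 4528 CPM in the wild type.

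The totals of the 4 libraries lay between 53516242 and 57964567 counts, and each of the 10 genes had at least 1700 counts in every library. TRF4, listed as PAP2, had 21 and 40 counts in the trf4Δ libraries but 8102 and 8468 in wild-type ones, which fits the labels. Over all features, log2(CPM + 1) correlated (Pearson) at 0.994 and 0.998 within the groups and at 0.960 to 0.962 between them. Markers of a cells were present in both groups, with sums of 1055 and 966 CPM in trf4Δ and 1423 and 1388 CPM in the wild type over 7 genes. Those of alpha cells summed to 42.1 and 48.1 CPM in trf4Δ and 28.3 and 31.2 CPM in the wild type over 4 genes. MF(ALPHA)1, which encodes the alpha pheromone, reached no more than 0.499 CPM, whereas STE3, the gene of the a-factor receptor, rose by 2.22 and SAG1, the gene of the alpha agglutinin, by 0.50 on the log2 scale. Of the a-cell genes 5 fell and ASG7 rose by 2.04. The part of these markers in the results was not tested. All 8 stress-induced genes examined rose in trf4Δ, with sums of 1750 and 1920 CPM against 637 and 586 CPM. The stress genes therefore moved with genotype beside every result given here, and their part in these results was not tested.

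The promoters were read first, since PAC was named after genes of this kind. A window from 250 bases before to 50 bases after each gene start was taken from RefSeq R64, the assembly that sacCer3, the build named by the submitters, also represents. It was searched on both strands for GATGAG, the core of PAC, and for AAAATTTT, the core of RRPE, which is its own reverse complement. PAC was found in 9 of the 10 windows and in 20.4% of all 6001 windows of protein-coding genes. Since PAC was named after such genes, a high share among the 10 is not an independent result. The longer PAC word GCGATGAG was found in 3 of the 10 and in 3.93% of all windows. RRPE was found in 8 of the 10 and in 9.03% of all windows. Both words occurred in 8 of the 10 genes and in 4.38% of all windows. Genes for ribosome synthesis are known to carry this pair often, so these shares are not independent results either. The stretches that hold both are shown for 7 of these genes, because they include subunits that fell and the 2 genes that did not, with the words in capitals, 5′ to 3′ in the direction of the gene, and CTCATC being PAC on the opposite strand:

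RPA190, chrXV:960757-960833, + strand: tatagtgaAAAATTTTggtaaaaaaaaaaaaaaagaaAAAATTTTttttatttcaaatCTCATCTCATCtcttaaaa
RPA135, chrXVI:581287-581339, - strand: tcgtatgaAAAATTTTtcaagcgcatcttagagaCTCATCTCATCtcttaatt
RPA49, chrXIV:182725-182761, - strand: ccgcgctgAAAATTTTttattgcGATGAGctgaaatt
RPA43, chrXV:960323-960372, - strand: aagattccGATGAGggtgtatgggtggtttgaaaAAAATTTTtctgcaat
RPC40, chrXVI:746905-746950, - strand: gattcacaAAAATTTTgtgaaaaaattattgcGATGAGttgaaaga
RPA14, chrIV:769392-769479, + strand: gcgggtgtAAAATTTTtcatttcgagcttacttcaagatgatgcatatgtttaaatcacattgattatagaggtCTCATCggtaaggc
RRN3, chrXI:208035-208086, + strand: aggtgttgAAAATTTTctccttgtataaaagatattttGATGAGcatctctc

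In RPA190 and RPA135, genes on different chromosomes for the catalytic pair, the PAC words stood as a doublet that shares 1 base, with RRPE farther from the gene. The first PAC word began at position -172 in RPA190 and -109 in RPA135, counting from -1 at the base before the start codon. A further PAC word of RPA135 overlapped its start codon. RRPE was the element farther upstream, by the nearest pair of words, in 7 of the 8 genes with both and in 65.8% of the 263 windows with both. RPA43 was the exception, with PAC at -182 and RRPE at -156. RPA34, with RRPE at -121 and PAC at -110, had the closest pair of the 8. In RPA14 the pair was the most widely spaced, with RRPE at -125 and PAC at -59.

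The remaining genes are shown as the contrast, RPC19 with PAC but not RRPE and RPA12 with neither word in its window:

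RPC19, chrXIV:412636-412657, + strand: tcacctgcGATGAGctggaaaa
RPA12, chrX:555045-555194, + strand: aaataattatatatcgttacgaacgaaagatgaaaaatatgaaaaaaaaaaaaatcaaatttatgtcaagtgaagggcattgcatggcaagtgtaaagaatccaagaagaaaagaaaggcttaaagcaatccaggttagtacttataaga

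The RPA12 stretch is the 150 bases before its start codon. The word TTACCCG, recognised by the factor Reb1, was found in the windows of RPA14 and RPC19 and in 7.08% of all windows. The consensus of the factor Abf1 was found in those of RPC40 and RPC19 and in 8.95% of all windows. A word is a match of letters and not evidence that a factor binds there.

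The catalytic subunits were the most abundant of the 10 by total counts. RPA190 (YOR341W, chrXV:960987-965981) encodes the largest subunit. Its trf4Δ libraries held 65103 and 63323 counts and its wild-type libraries 79382 and 80599, which are 1081 and 1052 CPM against 1559 and 1570 CPM. The groups did not overlap, and the log2 fold change was -0.55 (SE 0.09, adjusted p = 0.0017 by edgeR's quasi-likelihood test). RPA135 (YPR010C, chrXVI:577585-581196) encodes the second-largest subunit and gave 704 and 686 CPM in trf4Δ and 1061 and 1031 CPM in the wild type. Its log2 fold change was -0.59 (SE 0.09, adjusted p = 0.00105). The 2 genes kept nearly the same proportion to each other in every library, with 0.651 and 0.652 RPA135 counts per RPA190 count in trf4Δ against 0.681 and 0.656 for wild type. Both calls depended on the scaling, since under an abundance-dependent scaling (cyclic loess) the log2 fold change was 0.090 for RPA190 and -0.022 for RPA135, and under library size alone the call for RPA190 was lost at -0.23 (adjusted p = 0.0689).

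The assembly platform fell as well. RPC40 (YPR110C, chrXVI:745828-746835) had 352 and 330 CPM in trf4Δ and 552 and 593 CPM in the wild type, a log2 fold change of -0.75 (SE 0.09, adjusted p = 0.000355). RPC19 (YNL113W, chrXIV:412771-413199), its partner, was read at 32.6 and 33.8 CPM in trf4Δ and 54.6 and 44.7 CPM in the wild type, a log2 fold change of -0.58 (SE 0.12, adjusted p = 0.00421). For both genes each trf4Δ library lay below each wild-type library. RPC19 was no longer called under library size alone, at -0.26 (adjusted p = 0.107). The table also holds YNL114C, the feature next to RPC19 by name, for which no coordinates were at hand. It rose from 14 and 12 counts to 96 and 80, and whether reads were divided between it and RPC19 is not known.

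Of the stalk genes, RPA43 passed the test and RPA14 did not, and the difference between their changes was not tested. RPA43 (YOR340C, chrXV:959202-960182), the subunit that Rrn3 contacts, gave 222 and 227 CPM in trf4Δ and 350 and 373 CPM in the wild type. Its log2 fold change was -0.69 (SE 0.09, adjusted p = 0.000373). RPA43 and RPA190 are divergent neighbours with 804 bases between their starts, and RPA43 counts per RPA190 count were 0.205 and 0.216 in trf4Δ against 0.225 and 0.238 for wild type. RPA14 (YDR156W, chrIV:769525-769938), which encodes the other stalk subunit, had 40.6 and 28.3 CPM in trf4Δ, on either side of the wild-type values of 38.8 and 35.4 CPM. Its log2 fold change was -0.11 (SE 0.17, 95% interval -0.50 to 0.28, adjusted p = 0.597). This interval overlapped that of RPA135, which ran from -0.80 to -0.38.

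The trf4Δ libraries thus disagreed on RPA14. Without the first trf4Δ library the log2 fold change was -0.39 and passed the threshold (adjusted p = 0.0437), and without the second it was 0.13 (adjusted p = 0.371). The end of RPA14 overlaps YDR157W by 8 bases on the same strand. YDR157W, a feature of 402 bases, had 598 and 563 counts in trf4Δ, up from 127 and 124 in wild-type libraries, a log2 fold change of 1.97 (SE 0.19). How reads that span both were counted is not stated.

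Both genes of the Rpa49-Rpa34 dimer were lower. RPA49 (YNL248C, chrXIV:181361-182608) had 270 and 277 CPM in trf4Δ and 471 and 447 CPM in the wild type, a log2 fold change of -0.75 (SE 0.09, adjusted p = 0.000262). RPA34 (YJL148W, chrX:140437-141138) had 159 and 140 CPM in trf4Δ and 246 and 204 CPM in the wild type, a log2 fold change of -0.59 (SE 0.12, adjusted p = 0.00333). The wild-type libraries differed more for RPA34 than for RPA49, yet no trf4Δ value reached them. The call for RPA34 was lost under library size alone, at -0.27 (adjusted p = 0.0982).

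RPA12 (YJR063W, chrX:555195-555572), the gene with neither promoter word, had the lowest log2 fold change of the 10 with TMM scaling. Its interval overlapped those of the other subunits that fell, and without the first trf4Δ library RPC40 (-0.80) was below RPA12 (-0.77). The trf4Δ libraries held 3120 and 3439 counts of RPA12 and the wild-type libraries 5024 and 4925, which are 51.8 and 57.2 CPM against 98.7 and 96.0 CPM. The log2 fold change was -0.84 (SE 0.09, 95% interval -1.06 to -0.62, adjusted p = 0.000239), and 4.99% of all features tested had a value as low or lower. Of the 10 genes, RPA12, RPA43, RPA49 and RPC40 were called lower under both library size alone and the abundance-dependent scaling. Those fits called 11.6% and 25.2% of all features lower, and the share lower in both was not counted.

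RRN3 (YKL125W, chrXI:208247-210130) was the only one of the 10 called higher. The trf4Δ libraries held 10510 and 9730 counts of RRN3 and the wild-type libraries 7120 and 6891, or 175 and 162 CPM against 140 and 134 CPM. Both trf4Δ libraries lay above both wild-type libraries, and the log2 fold change was 0.29 (SE 0.09, 95% interval 0.09 to 0.50, adjusted p = 0.0201). Among all features tested, 65.1% had a log2 fold change as low as that of RRN3 or lower. The direction was the same in all 12 alternative fits, from 0.24 to 0.62, and 9 of them passed the threshold. The call was lost without the first trf4Δ library (0.24, adjusted p = 0.0935), without the first wild-type library (0.33, adjusted p = 0.0601) and without the second wild-type library (0.27, adjusted p = 0.105).

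**Figure D1:**
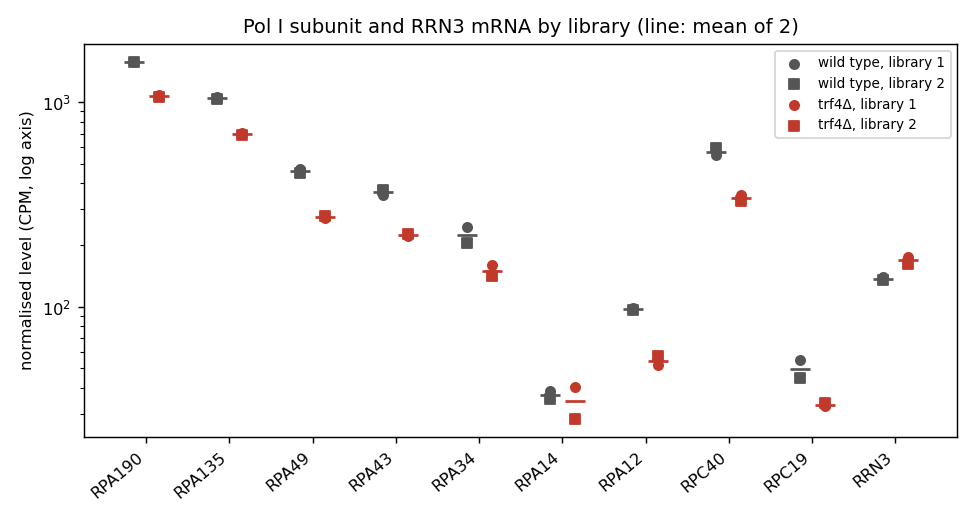
Normalised level (CPM, log axis) of each of the 10 genes in each library, with wild type in grey, trf4Δ in red and a line at the mean of the 2 libraries of a group. The red points lie below the grey ones for 8 subunit genes, overlap them for RPA14 and lie above them for RRN3.

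The groups did not overlap, with trf4Δ lower, for 8 of the 10 genes, against 40.2% of all features tested. With trf4Δ higher this held for 1 of the 10, against 41.8% of all features. The 95% intervals of all 8 subunits that fell overlapped one another, and none of them reached that of RRN3. RPA14 alone had an interval that spanned 0. It overlapped the intervals of RPA190, RPA135, RPA43, RPA34, RPC19 and RRN3 but not those of RPA49, RPC40 and RPA12.

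**Figure D2:**
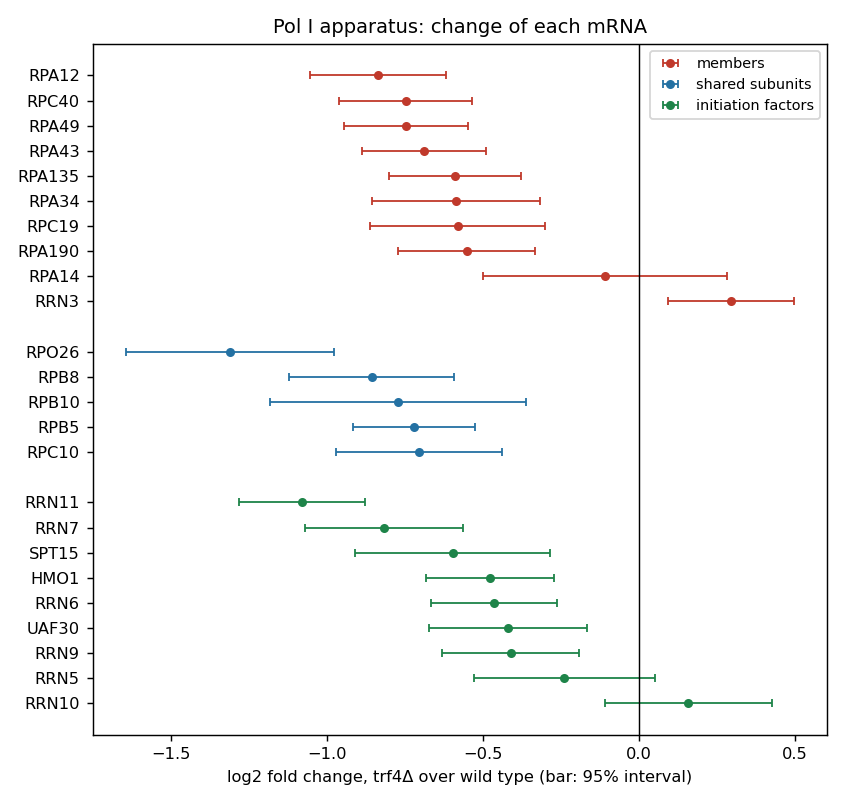
Log2 fold change of trf4Δ over wild type, with 95% intervals from edgeR's quasi-likelihood fit, for the 10 genes, the 5 shared subunits and 9 initiation factors, each group ordered by its value. Among the 10 genes the points run from -0.84 for RPA12 to 0.29 for RRN3.

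The level of RRN3 relative to the subunits was also read as a ratio of counts within each library, which no scaling of whole libraries can change. Such a ratio does not show which gene of the pair changed, so it cannot show that they moved in opposite directions. For each RPA190 count there were 0.161 and 0.154 RRN3 counts in trf4Δ against 0.0897 and 0.0855 for wild type, a 1.80-fold higher ratio. Against RPA12 the ratio was 3.37 and 2.83 in trf4Δ, up from 1.42 and 1.40, 2.19-fold higher. Against RPA43, to which Rrn3 binds, it was 0.787 and 0.711 in trf4Δ, up from 0.399 and 0.360, 1.98-fold higher. For all 9 subunits both trf4Δ libraries lay above both wild-type libraries, from 1.34-fold against RPA14 to 2.19-fold against RPA12. The 9 ratios share the RRN3 counts and are not separate results. For the subunits that fell, the order of the ratios follows from the levels of the single genes given above and adds no support to them. Groups that do not overlap were also common among single features, with trf4Δ lower for 40.2% and higher for 41.8%. With 2 libraries against 2, an exact two-sided permutation test cannot give a p below 0.333, and each of the 9 ratios gave that value.

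**Figure D3:**
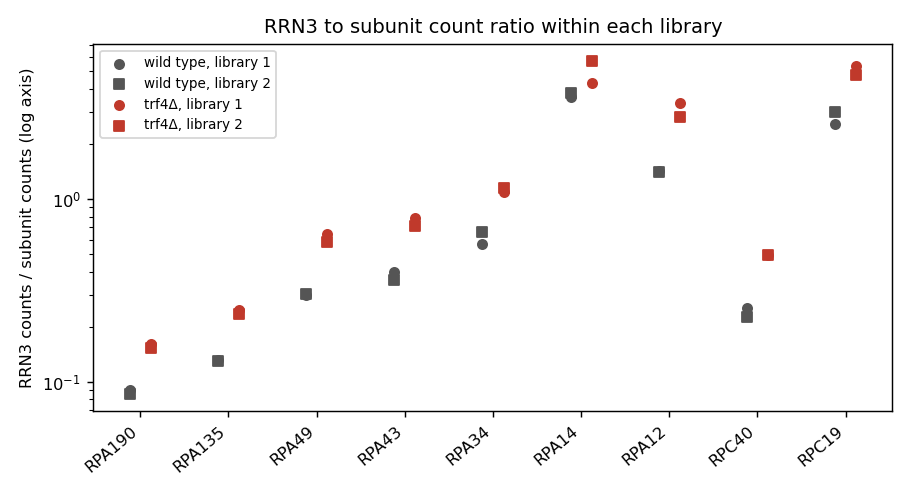
RRN3 counts divided by the counts of each subunit gene within the same library (log axis), wild type in grey and trf4Δ in red, with circles and squares for the first and second library of a group. In every column both red points lie above both grey ones, and the gap is narrowest for RPA14.

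The levels of the 10 mRNAs were then compared per kilobase of coding length. In the wild type RPC40 was highest, at 568 ± 28.7 CPM per kb (SD, n = 2), followed by RPA43 (369), RPA49 (368), RPA34 (320), RPA190 (313), RPA135 (290), RPA12 (257), RPC19 (116), RPA14 (89.6) and RRN3 (72.7 ± 2.08). The ranges of the 2 libraries overlapped between RPA43 and RPA49 and between RPA34 and RPA190, so these neighbours did not differ beyond their spread. The range of RPA34 (290 to 350) also overlapped that of RPA135 (285 to 294), so the order of that pair is not resolved either. In trf4Δ RPC40 was again highest, at 338 ± 15.8 CPM per kb, and RPC19 was lowest, at 77.4 CPM per kb. RRN3 stood at 89.2 ± 4.80 CPM per kb there, above RPA14 and RPC19, although its range overlapped that of RPA14. The range of RPA14 covered that of RPC19 as well, so the place of RPA14 among these 3 genes is not resolved. RRN3, at 85.8 to 92.6 CPM per kb, did not overlap RPC19, at 75.9 to 78.8. The highest of the 10 levels was 4.60 and 4.79 times the lowest in the trf4Δ libraries and 7.37 and 8.25 times in the wild type. The levels of the 10 mRNAs were thus closer together in the trf4Δ libraries.

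Genes for the 5 subunits that all 3 nuclear RNA polymerases share were all called lower with TMM scaling, and 4 of the 5 under library size alone. The shares of all features called lower were 28.9% and 11.6%. RPO26 changed most, from 481 and 512 CPM to 170 and 230 CPM, a log2 fold change of -1.31 (SE 0.14). RPB8 (-0.86), RPB10 (-0.77), RPB5 (-0.72) and RPC10 (-0.71) followed, and the adjusted p of the 5 genes lay between 0.000211 and 0.0065. None of the 5 windows held PAC, and 2 held RRPE. Their median log2 fold change was -0.77, beside -0.59 for the 9 subunit genes described above and 0.01 for all features tested.

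Of 9 genes for other factors that start transcription of ribosomal DNA, 7 fell with TMM scaling, but under library size alone 2 were called lower and 1 higher. Over all features, 28.9% were lower with TMM scaling, and 11.6% were lower and 49.6% higher under library size alone. The core factor binds the promoter together with RNA polymerase I, and its genes RRN11 (-1.08, SE 0.09), RRN7 (-0.82, SE 0.11) and RRN6 (-0.46, SE 0.09) all passed the test. RRN11 went from 100 CPM in each wild-type library to 47.7 and 47.0 CPM in trf4Δ. SPT15, the gene of the TATA-binding protein (-0.60), HMO1, the gene of a high mobility group protein of the ribosomal DNA (-0.48), and UAF30 (-0.42) and RRN9 (-0.41), genes of the upstream activating factor, were lower too. The other 2 genes of that factor did not pass. RRN5 had a log2 fold change of -0.24 (95% interval -0.53 to 0.05) and RRN10 one of 0.16 (95% interval -0.11 to 0.43). Histones H3 and H4, which also belong to the upstream activating factor, were left out because each is encoded by a pair of near-identical genes. PAC was found in 6 of the 9 windows and RRPE in 1.

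Of 10 genes for elongation, termination and nucleolar chromatin of the ribosomal DNA, 7 fell, beside 28.9% of all features. The number was 5 under library size alone, beside 11.6% of all features, and also 5 under the abundance-dependent scaling, beside 25.2%. They included REB1 (-0.82, SE 0.10), which encodes a factor that binds near the terminator, RNT1 (-0.64, SE 0.09), which encodes the RNase III that cuts the primary transcript, and SIR2 (-0.74, SE 0.11), which encodes a histone deacetylase of silent ribosomal DNA. SPT4 had at most 76 counts in any library and did not pass, and neither did TOP1 and NSI1.

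Of 5 regulators of ribosome synthesis genes, 2 fell and 1 rose, whereas 1 fell and 3 rose under library size alone. These shares are close to those of all features, of which 28.9% fell and 31.3% rose with TMM scaling, and 11.6% and 49.6% under library size alone. TOD6 (-0.72, SE 0.13) and SCH9 (-0.27, SE 0.09) fell and DOT6 (0.53, SE 0.12) rose. Tod6 and Dot6 are related repressors that bind PAC, and Sch9 is a kinase under TORC1 control. DOT6 had 198 and 157 CPM in trf4Δ and 118 and 128 CPM in the wild type. TOD6 had 140 and 164 CPM in trf4Δ and 221 and 277 CPM in the wild type. STB3, whose product binds RRPE, had a log2 fold change of 0.25 (95% interval -0.05 to 0.55), and SFP1, which encodes an activator of these genes, one of 0.08 (95% interval -0.14 to 0.30). Neither passed the test.

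The subunits particular to the other enzymes are given side by side. Over all features, 28.9% were lower with TMM scaling, 11.6% under library size alone and 25.2% under the abundance-dependent scaling. The shares of all features called higher were 31.3%, 49.6% and 26.7% in the same order. Of 10 RNA polymerase III genes 9 were lower (median log2 fold change -0.58), and RPC17 (-1.07), RPC82 (-0.79) and RPC53 (-0.63) had the smallest p-values. Under library size alone 5 of the 10 were lower and 1 was higher. PAC was found in 8 of their windows and RRPE in 5. Of 7 RNA polymerase II genes 5 were lower, with a median of -0.38, and RPB9 (-0.62), RPB4 (-0.38) and RPB3 (-0.56) had the smallest p-values. Under library size alone 1 of the 7 was lower and 2 were higher, and under the abundance-dependent scaling 3 were lower and 2 higher. RPO21, the gene of the largest subunit of RNA polymerase II and the counterpart of RPA190, had a log2 fold change of 0.02 (SE 0.11). PAC was found in 1 of these 7 windows and RRPE in 2. The differences between the 3 enzymes were not tested.

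Across all tested genes, the change was set beside the promoter words. Genes with both words numbered 260, and 78.5% of them were called lower. Their median log2 fold change was -0.65. It was -0.33 under library size alone, with 55.0% of them lower, and -0.36 under the abundance-dependent scaling, with 61.5% lower. Without the 8 of the 10 genes that belong to this group the median was -0.65 over 252 genes. Of 4406 genes with neither word 25.9% were lower, and the median was 0.05. Under library size alone 8.44% of these were lower. PAC alone was found in 902 tested genes with a median of -0.09, and RRPE alone in 272 with a median of -0.34. The value for PAC alone depended on the words used. The longer PAC word GCGATGAG without the longer RRPE word AAAAATTTT was found in 137 tested genes, of which 65.7% were lower, with a median of -0.52. Windows of that group can still hold the shorter RRPE word, so the shift cannot be credited to the PAC word alone. The 10 genes did not follow the words one by one: RPA12 fell and held neither, whereas RPA14, which did not pass, and RRN3, which rose, held both. RRN3 held neither of the longer words, whereas the RPA14 window held AAAAATTTT. Of the 260 genes with both words, 5.38% were called higher.

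**Figure D4:**
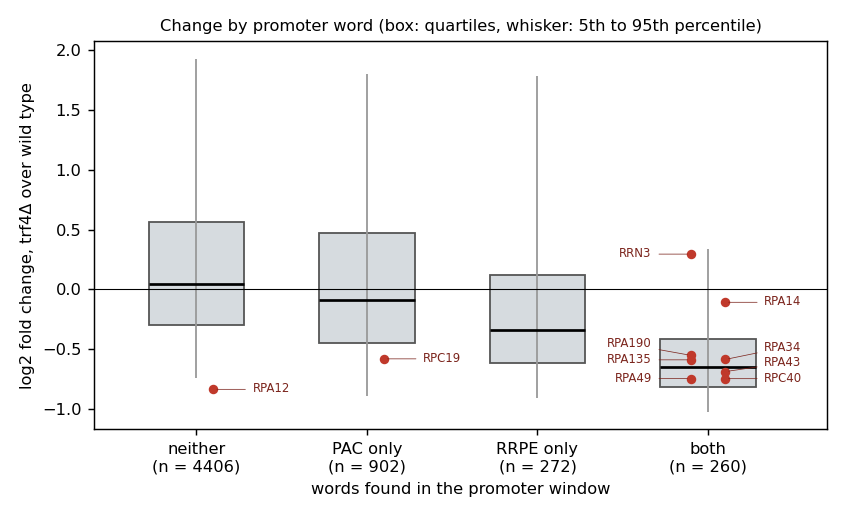
Log2 fold change of trf4Δ over wild type for all tested genes with a promoter window, grouped by the words found in it (PAC and RRPE), as boxes of the quartiles with the median and whiskers from the 5th to the 95th percentile. Red points are the 10 genes, of which 6 lie inside the box for both words, RRN3 and RPA14 lie above it, RPC19 is in the group with PAC alone and RPA12 lies below the box of the group with neither word.

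Neighbouring genes were examined for the pair of genes that did not fall and for the divergent promoters. RRN3 lies between YPK1 and SSH4 on the same strand, and both rose, by 0.31 (SE 0.08) and 1.15 (SE 0.11) on the log2 scale. YPK1, which ends 497 bases before RRN3 starts, had 12845 and 13062 counts in trf4Δ, up from 9141 and 8606. CPR1, divergent from RPA14 with 524 bases between them, fell by 0.43 (SE 0.12), and CRS1, divergent from RPA49 with 266 bases between them, fell by 0.54 (SE 0.09). NTA1, divergent from RPA12, had a log2 fold change of 0.12 (SE 0.09) and did not pass. YNL115C, divergent from RPC19 with 717 bases between them, rose by 1.35 (SE 0.13). DBF20, divergent from RPC40 with 470 bases between them, fell by 0.27 (SE 0.10). Downstream of RPA14, HOM2 fell by 0.73 (SE 0.21).

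The balance between the groups depends on how the libraries are scaled, since the TMM factors were 1.125 and 1.111 in trf4Δ but 0.904 and 0.886 in wild-type libraries. Under library size alone the median of all features was 0.34 in place of 0.01, and 5 of the 10 genes were lower, beside 11.6% of all features, with 49.6% of all features higher. TMM and library size alone differ by a constant factor per library, which shifts all features nearly alike. The median of the 10 genes therefore lay 0.60 below that of all features with either scaling. Under the abundance-dependent scaling, which removes the part of a change that features of like abundance share, it lay 0.31 below, 6 of the 10 genes were lower beside 25.2% of all features, and RRN3 was higher at 0.49 (SE 0.09, adjusted p = 0.00305). RPA190 and RPA135, the most abundant of the 10 by total counts, were near 0 there, and RPA12 was at -0.75 (SE 0.09). RPA43, RPA49 and RPC40 were still called, at -0.35, -0.36 and -0.31. Under library size alone RPA12 was at -0.52 (SE 0.09).

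**Figure D5:**
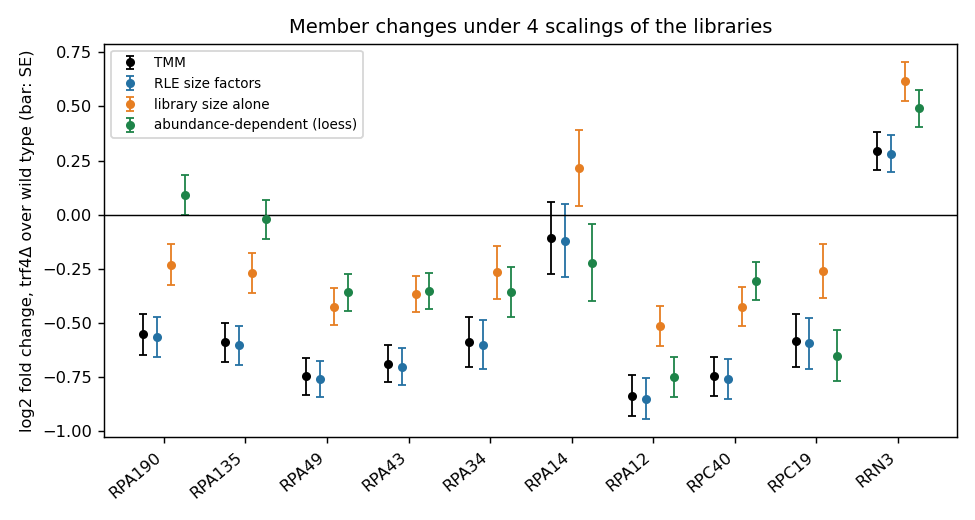
Log2 fold change with its SE for each of the 10 genes under TMM, RLE size factors, library size alone and an abundance-dependent scaling. RRN3 is above 0 under all 4, RPA12 is below -0.5 under all 4, and RPA190 and RPA135 lie near 0 under the abundance-dependent scaling.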

How the data were processed

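The deposited values were raw counts, 1 column per library in a single table, not normalised. Per the labels, total RNA was depleted of ribosomal RNA and made into ScriptSeq libraries, which were read for 76 bases from both ends. The submitters' processing notes name STAR 2.5.3 and sacCer3. The counting program and strand setting are not given in the sources used here. The paper paired with the series describes other work and was not used for methods.

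The test was that of edgeR 4.0.16 in R 4.3.3 (filterByExpr, TMM, glmQLFit and glmQLFTest, two-sided, no covariates). All 6372 features kept entered one fit with Benjamini-Hochberg adjustment over the whole table and a threshold of 0.05. Each SE was taken from the fold change and its F, and intervals are 95% t intervals. CPM used library sizes times TMM factors. The main fit was tried on simulated data in which a small set of features changed, in both directions. That setting differs from these data, so it does not test the choice of scaling. Alternatives were RLE size factors, library size alone, TMM from nuclear genes only, cyclic loess (limma 3.58.1), robust fitting, a minimum of 10 counts per library, no filter, DESeq2 1.42.0, other thresholds and leaving out each library, where a lone library is assumed to vary like the other group. Symbols, coordinates and promoter windows came from RefSeq R64, and 6048 of 7445 features matched it.

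The 10 genes and the lists were chosen with earlier results of these data known. Named were the 10 genes, all shared subunits and initiation factors, up to 3 genes with the smallest adjusted p in each other list, the 5 features nearest in profile, the targeted gene and neighbours that overlap or are divergent. Other genes, the remaining neighbours among them, were named after their values were seen. The word search used an ABF1 consensus and was run with Python 3.11.15.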

Additional observations from a re-analysis of the deposited data

How the results depend on the processing

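Of 12 alternative fits for each gene, all kept the direction of RPA12, RPA43, RPA49 and RPC40, and these genes kept their call under every scaling. The share of all features called lower ranged from 11.6% to 29.9% over the alternative scalings. Under library size alone the call was lost for RPA190 (-0.23), RPA34 (-0.27) and RPC19 (-0.26), and RPA14 turned to 0.21. With that setting 739 features were lower and 3162 higher, so that 81.1% of calls were higher in place of 52.0%. The numbers called lower were then 5 of the 10 genes, 4 shared subunits, 5 genes of the ribosomal DNA list, 2 initiation factors, 1 regulator, 1 RNA polymerase II gene and 5 RNA polymerase III genes, and those called higher were 1 initiation factor, 3 regulators, 2 RNA polymerase II genes and 1 RNA polymerase III gene. Under the abundance-dependent scaling RPA190 turned to 0.090 and RPA135 lost its call (-0.022), 1 regulator and 3 RNA polymerase II genes were lower, and 2 RNA polymerase II genes and 1 RNA polymerase III gene were higher. The scaling alone differs in these fits, and what underlies the shift was not tested.

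Leaving out 1 library at a time, RPA14 ranged from -0.39 to 0.13 and RRN3 from 0.24 to 0.35. The median log2 fold change of the 10 genes then ranged from -0.66 to -0.56. That of the regulators ranged from 0.003 to 0.15, and that of the RNA polymerase II genes from -0.40 to -0.35. At an adjusted p of 0.01 RRN3 was not called, which left 0 of the 10 genes higher, beside 1494 of all 6372 features tested. The number lower was 8 of the 10, beside 1298 of all features. With the longer word for PAC, 3 of the 10 windows held it in place of 9. The median of tested genes with PAC was then -0.63 in place of -0.23. The median of tested genes with both words was -0.33 under library size alone and -0.36 under the abundance-dependent scaling, and that of genes with neither word was 0.37 and 0.05, alternatives chosen after seeing the data. When levels were not divided by coding length, RPA190 ranked first of the 10 in the wild type in place of RPC40. No paired analysis was possible because the labels give no replicate numbers that the groups share.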

Other observations

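Among 5229 other features with a mean of at least 10 CPM, those closest to the median profile of the 10 genes over the 4 libraries were sought by the Euclidean distance between log2 values centred on each feature's mean. PWP1, which encodes a ribosome assembly factor, was nearest, at a distance of 0.020, with 409 and 398 CPM in trf4Δ and 620 and 599 CPM in the wild type. NOT3, a gene of the CCR4-NOT complex, followed at 0.023, with 153 and 150 CPM against 232 and 224 CPM. YRA2, which encodes an RNA-binding protein of mRNA export, VAS1, the valyl-tRNA synthetase gene, and TRM732, a tRNA modification gene, were next, at distances up to 0.027. All 5 had log2 fold changes between -0.62 and -0.59. With Pearson correlation as the measure only NOT3 was again among the nearest 5. The points are 4 libraries in 2 groups, so the distance mostly compares the size of the change between the groups.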
